A study of Mus musculus with 18 samples.

Results

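The genes described are 10 targets of the hypoxia-inducible factors (HIF) that act in metabolic stress: Slc16a3, Pdk1, Mxi1, P4ha1, Stc1, Stc2, Bnip3, Ndrg1, Ddit4 and Ankrd37. They were taken by symbol from the 57010 Ensembl genes of the count table, as HIF targets other than the glycolytic enzymes and the VEGF genes. All 10 were found and all 10 passed the filter on low counts. They were followed in brain endothelial cells isolated from mice, in 18 libraries of 4 groups. Every animal was homozygous for a floxed Pdcd10 allele (Pdcd10 fl/fl) and, in KO and flox alike, carried Aldh1l1-EGFP/Rpl10a, a tagged ribosomal protein made in astrocytes. The product of Pdcd10, CCM3, is a scaffold protein, and mutations in the gene lead to cerebral cavernous malformations, leaky clusters of dilated brain vessels. The group called KO also carried Slco1c1-iCreERT2, a tamoxifen-inducible Cre under a promoter of brain endothelium. The group called flox had no driver per its labels, while the design text adds that driver animals left uninjected served as controls as well and does not say in which libraries. Apart from the uninjected animals, pups received 50 µg of 4-hydroxytamoxifen on postnatal day 1, and brains were taken on postnatal day 57. Normoxia was room air at 21% oxygen, and hypoxia was 12% oxygen for 7 days. At each oxygen level 4 libraries were flox and 5 were KO.

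HIF is a pair of proteins, an alpha subunit encoded by Hif1a or Epas1 and a partner encoded by Arnt. In air the EGLN prolyl hydroxylases mark the alpha subunit for destruction through VHL, and when oxygen falls it accumulates and binds the core sequence ACGTG or GCGTG near its target genes. The targets followed here turn pyruvate away from mitochondria (Pdk1), export lactate (Slc16a3), oppose MYC (Mxi1), mature collagen (P4ha1), secrete stanniocalcins (Stc1, Stc2), remove mitochondria (Bnip3) and restrain growth (Ddit4). Brain endothelium uses glycolysis heavily, and its monocarboxylate carriers move lactate across the blood-brain barrier.

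The HIF core was looked for in the 250 bases before the RefSeq start of each gene (GRCm38.p6), on both strands, as ACGTG or GCGTG (matches on opposite strands can share letters, as in CACGTG). Windows were at hand for 8 of the 10 genes, not for Stc1 and Ndrg1. All 8 had a match in at least 1 window, 6 of them ACGTG. Over all genes with a window, 41.5% had a match and 18.5% had ACGTG, and over the 32851 single windows 38.6% had a match. The windows of the genes that rose in the comparisons below, and that of Bnip3, which had the most matches, are printed 5′ to 3′ in the direction of transcription, with each match in capitals (on the opposite strand the letters read CACGT or CACGC). The last 13 to 17 bases of the Slc16a3, Stc2, Bnip3 and Ankrd37 windows lie in exons of the same genes in the GENCODE M21 annotation.
Slc16a3, chr11:120948817-120949066, plus strand: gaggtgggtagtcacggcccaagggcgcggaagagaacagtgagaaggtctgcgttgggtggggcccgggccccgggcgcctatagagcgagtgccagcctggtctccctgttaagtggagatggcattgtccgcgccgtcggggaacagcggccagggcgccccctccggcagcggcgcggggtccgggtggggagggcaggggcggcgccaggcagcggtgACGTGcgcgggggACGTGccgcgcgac
Pdk1, chr2:71872974-71873223, plus strand: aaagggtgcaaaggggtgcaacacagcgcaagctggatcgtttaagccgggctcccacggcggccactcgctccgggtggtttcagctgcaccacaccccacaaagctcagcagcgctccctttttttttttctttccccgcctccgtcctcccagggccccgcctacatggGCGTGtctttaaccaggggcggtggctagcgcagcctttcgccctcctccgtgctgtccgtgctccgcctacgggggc
Mxi1, chr19:53329163-53329412, plus strand: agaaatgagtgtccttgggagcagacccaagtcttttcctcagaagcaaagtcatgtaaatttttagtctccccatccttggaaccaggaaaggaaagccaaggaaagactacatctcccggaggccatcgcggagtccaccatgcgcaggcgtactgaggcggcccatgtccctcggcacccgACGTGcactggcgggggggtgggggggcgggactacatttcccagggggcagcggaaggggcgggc
P4ha1, chr10:59323046-59323295, plus strand: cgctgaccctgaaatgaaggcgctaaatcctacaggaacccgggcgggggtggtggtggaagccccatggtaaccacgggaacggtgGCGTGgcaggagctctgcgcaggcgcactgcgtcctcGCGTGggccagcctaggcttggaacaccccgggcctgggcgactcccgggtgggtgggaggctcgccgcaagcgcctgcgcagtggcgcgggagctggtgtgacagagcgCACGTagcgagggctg
Stc2, chr11:31370062-31370311, minus strand: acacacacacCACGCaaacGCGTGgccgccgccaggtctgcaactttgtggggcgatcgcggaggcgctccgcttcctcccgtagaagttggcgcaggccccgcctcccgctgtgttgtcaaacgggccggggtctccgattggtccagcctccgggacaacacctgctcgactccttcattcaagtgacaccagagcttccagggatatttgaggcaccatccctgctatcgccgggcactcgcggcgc
Ankrd37, chr8:45999851-46000100, minus strand: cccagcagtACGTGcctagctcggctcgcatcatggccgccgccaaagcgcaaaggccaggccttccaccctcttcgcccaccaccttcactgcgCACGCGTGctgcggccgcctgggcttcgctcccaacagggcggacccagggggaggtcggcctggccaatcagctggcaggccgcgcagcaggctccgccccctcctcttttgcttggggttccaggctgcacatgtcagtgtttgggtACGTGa
Bnip3, chr7:138909507-138909756, minus strand: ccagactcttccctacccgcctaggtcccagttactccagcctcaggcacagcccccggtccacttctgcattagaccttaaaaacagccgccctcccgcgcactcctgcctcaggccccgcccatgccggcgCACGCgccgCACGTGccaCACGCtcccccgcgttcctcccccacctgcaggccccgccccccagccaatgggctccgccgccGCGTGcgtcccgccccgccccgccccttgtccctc
Slc16a3 had a pair of ACGTG, at 27 and 14 bases before the start. Bnip3 had 5 matches between 117 and 35 bases before its start, among them CACGTG, which reads ACGTG on either strand. Ankrd37 had 4, P4ha1 had 3, Stc2 had 2 that were both GCGTG, and the printed windows of Pdk1 and Mxi1 had 1 each. These genes have further starts: a second Pdk1 window and another Mxi1 window had no match, and an Mxi1 window that lies wholly in exon had an ACGTG 25 bases before its start; these are not printed. Ddit4 had an ACGTG and a GCGTG, 187 and 115 bases before its start. A match is a run of letters and says nothing of binding in these cells.

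Levels are CPM, read counts scaled to a common library total after TMM scaling, and RPKM, which also divide by gene length, where genes are compared with each other. Changes are log2 fold changes ± SE from edgeR's quasi-likelihood test, fitted to the 18 libraries together; p values were adjusted by Benjamini-Hochberg over 17531 genes, and "rose" or "fell" means an adjusted p under 0.05. Library totals were 17931197 to 31193333 counts. Pdcd10 was at 30.6 to 45.0 CPM in normoxia flox and 16.3 to 20.1 CPM in normoxia KO, and at 37.7 to 60.9 and 18.2 to 25.3 CPM in hypoxia, with no overlap between genotypes. The labels do not say that replicates came from separate animals, so p values measure the spread between these samples. The summed level of 10 endothelial markers was 15721 to 23505 CPM over all libraries. Normoxia flox 4 and normoxia KO 4 carried neuron RNA (Syt1 at 838 and 471 CPM, 8.68 CPM or less elsewhere). They also had the highest sums of 10 astrocyte markers, 2189 and 1225 CPM against 273 CPM or less elsewhere. Settings without the libraries with neuron RNA therefore leave out this astrocyte RNA as well. Fos, an immediate early gene, reached 4308 CPM or more in 8 libraries (normoxia flox 1, normoxia KO 1, 2 and 5, hypoxia KO 2 to 5), stood at 3088 CPM in hypoxia flox 2, and was at 1326 CPM or less in the other 9 libraries. Xist and Y-linked Ddx3y pointed to opposite sexes in hypoxia: all 4 flox libraries had Ddx3y at 135 CPM or more, and 4 of the 5 KO libraries had Xist at 669 CPM or more. In normoxia, both signals were present in 3 libraries, flox 3, flox 4 and KO 4, with Xist at 246 to 478 CPM and Ddx3y at 9.68 to 83.4 CPM; whether these hold RNA of more than 1 animal was not tested. Sums of 10 smooth muscle markers were 331 to 975 CPM in flox and 138 to 276 CPM in KO, those of 10 pericyte markers 183 to 1186 and 708 to 2156 CPM, those of 10 macrophage markers 24.6 to 170 and 40.6 to 138 CPM, and those of 10 lymphocyte markers 3.82 to 14.6 and 9.55 to 43.3 CPM. Sums of 7 erythroid markers were 1362 to 2730 CPM in normoxia flox and 3542 to 4830 CPM in hypoxia flox, and 1161 to 5020 and 2609 to 8009 CPM in the KO groups. The part of these other cells in the genotype and oxygen comparisons below was not tested. Sex signals also differed between the oxygen levels in flox, as normoxia flox 2 had Xist at 891 CPM and Ddx3y at 0. In bulk RNA, fewer cells of a type and less RNA per cell cannot be told apart.

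KO preparations in normoxia had higher transcript levels of the lactate exporter Slc16a3, the pyruvate dehydrogenase kinase Pdk1, the MYC antagonist Mxi1, the collagen hydroxylase subunit P4ha1, the secreted glycoprotein Stc2 and Ankrd37. These 6 of the 10 rose, from 1.49-fold for P4ha1 to 8.52-fold for Slc16a3, and each without overlap between the libraries; over all genes 9.54% rose, 7.03% fell, 16.6% changed in either direction and 14.7% had no overlap. With the replicate number as a block, 2 of the 10 were called when the same-numbered normoxia pairs were fitted alone and 3 when the hypoxia libraries were kept. Over all genes 701 of 16425 and 1751 of 17698 were then called, against 2905 of 17531 without the block. An unadjusted p under 0.05 was reached by 7 members and by 28.9% of all genes. In hypoxia 5 of the same genes were higher in KO than in flox (Stc2 was not called), Ddit4 and Ndrg1 were lower, and over all genes 22.3% changed, 11.4% up and 11% down. There an unadjusted p under 0.05 was reached by 9 members and by 34.6% of all genes. With hypoxia itself fewer members were called. At an unadjusted p under 0.05 there were 3 in flox and 4 in KO, against 17.8% and 14.2% of all genes. Stc2 and Pdk1 rose in flox, against 2.81% of all genes changed, 2.34% risen and 0.462% fallen, and Stc2 rose in KO, against 1.48% changed and 0.713% risen. The genotype comparisons and the oxygen comparisons share libraries, so their values stand side by side and are not independent.

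**Figure D1:**
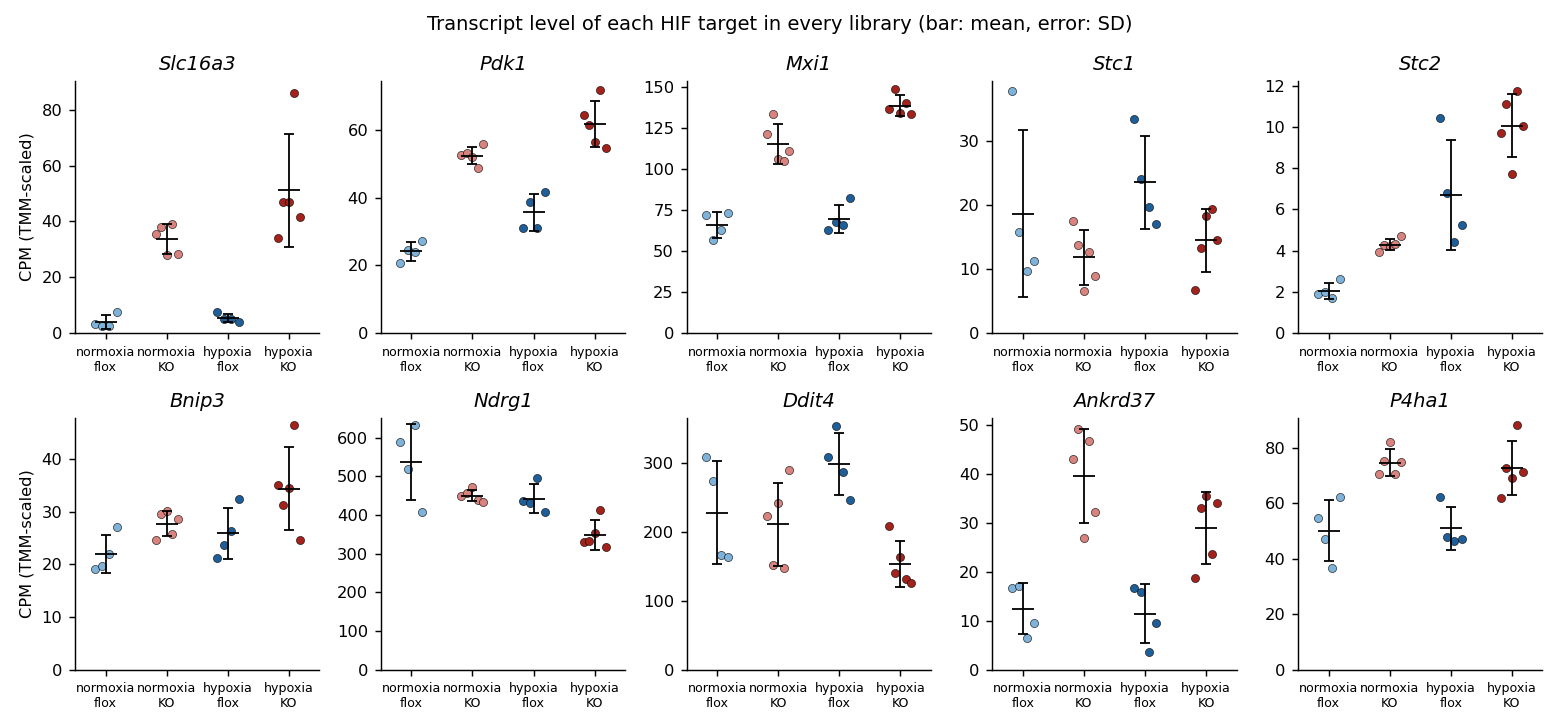
Transcript level (CPM, TMM-scaled, axis from 0) of the 10 HIF targets in every library, by group; points are libraries, the bar is the group mean and the error the SD (n = 4, 5, 4 and 5). Slc16a3 lies between 27.8 and 86.1 CPM in the KO libraries and between 2.39 and 7.50 CPM in the flox libraries, while Stc2 is higher in hypoxia than in normoxia within each genotype.

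Slc16a3 (ENSMUSG00000025161) encodes MCT4, a carrier that exports lactate from glycolytic cells. In normoxia it stood at 3.13, 2.39, 2.69 and 7.50 CPM in flox 1 to 4 and at 35.4, 37.99, 27.8, 39.0 and 28.3 CPM in KO 1, 2, 4, 5 and 6. In hypoxia it stood at 7.50, 5.02, 5.10 and 4.02 CPM in flox 2 to 5 and at 33.9, 47.1, 46.8, 86.1 and 41.7 CPM in KO 1 to 5. Every KO library lay above every flox library in both oxygen levels, and normoxia flox 4 and hypoxia KO 4 stood above the rest of their groups. The change in KO was 3.09 ± 0.35 (adjusted p = 1.38e-05), 8.52-fold, in normoxia and 3.24 ± 0.35 (adjusted p = 1.16e-05), 9.43-fold, in hypoxia. With the replicate number as a block on the normoxia pairs alone the normoxia value was 3.04 ± 0.48 (adjusted p = 0.0506), and with the hypoxia libraries kept it was 3.05 ± 0.45 (adjusted p = 0.0018). Hypoxia gave 0.45 ± 0.35 (adjusted p = 0.571) in flox and 0.60 ± 0.29 (adjusted p = 0.355) in KO, neither past the threshold. Without normoxia flox 4 the flox value was 0.98 ± 0.30 (adjusted p = 0.112), and without both libraries with neuron RNA and with the immediate early score, described with Stc1, as a covariate, a setting chosen after seeing the data, it passed at 1.07 ± 0.29 (adjusted p = 0.0405). Hypoxia KO 4, the library highest for Slc16a3, also had the highest summed level of 10 neutrophil markers, 133 CPM against 8.03 CPM or less elsewhere; without it the change in hypoxia KO was 2.97 ± 0.30 (adjusted p = 1.30e-05).

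Slc16a3 remained a small part of the monocarboxylate carriers that these cells transcribe. Slc16a1, the MCT1 carrier of the blood-brain barrier, had a mean of 170.3 ± 18.02 RPKM in normoxia flox and 304.5 ± 30.5 RPKM in normoxia KO, where Slc16a3 had 0.75 ± 0.436 and 6.12 ± 0.792 RPKM (SD, n = 4 and 5). In hypoxia Slc16a1 had 341.5 ± 101.1 RPKM in flox and 429.7 ± 79.8 RPKM in KO, and Slc16a3 had 1.08 ± 0.30 and 9.10 ± 3.21 RPKM. As a share of the summed RPKM of Slc16a1, Slc16a3 and Slc16a7, Slc16a3 made up 0.446% ± 0.281 in flox and 1.97% ± 0.183 in KO in normoxia, and 0.340% ± 0.141 and 2.23% ± 1.28 in hypoxia. Slc16a1 itself rose in KO in normoxia (0.92 ± 0.17, adjusted p = 0.00128), in KO in hypoxia (0.49 ± 0.17, adjusted p = 0.0474) and with hypoxia in flox (0.94 ± 0.18, adjusted p = 0.00573). Bsg, the chaperone that brings both carriers to the membrane, rose in KO in normoxia (0.78 ± 0.14, adjusted p = 0.000797).

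Pdk1 (ENSMUSG00000006494) encodes a kinase that inactivates pyruvate dehydrogenase and so holds pyruvate back from the citric acid cycle. Its normoxia values were 20.7, 24.6, 23.9 and 27.3 CPM in flox and 52.6, 53.1, 52.1, 48.7 and 55.8 CPM in KO. Its hypoxia values were 30.97, 38.9, 31.2 and 41.6 CPM in flox and 64.6, 61.4, 56.6, 72.0 and 54.8 CPM in KO. Each step from normoxia flox to hypoxia flox and from either flox group to its KO group was free of overlap, whereas the KO groups overlapped between 54.8 and 55.8 CPM. Pdk1 rose by 1.12 ± 0.11 (adjusted p = 2.56e-06) in normoxia KO, by 0.80 ± 0.11 (adjusted p = 8.49e-05) in hypoxia KO and by 0.56 ± 0.11 (adjusted p = 0.00759) with hypoxia in flox. With hypoxia in KO the value was 0.24 ± 0.10 (adjusted p = 0.289). The rise in flox did not pass when the 2 flox groups were fitted alone (0.55 ± 0.13, adjusted p = 0.103).

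The other kinases of pyruvate dehydrogenase, Pdk2, Pdk3 and Pdk4, had values of -0.01, -0.05 and -1.02 in normoxia KO and of -0.01, -0.03 and -0.49 in hypoxia KO, and no value of theirs passed in the 4 comparisons. Pdk1 made up 14.6% ± 2.26 of the summed RPKM of the 4 kinases in normoxia flox and 30.5% ± 3.31 in normoxia KO, 22.2% ± 2.87 in hypoxia flox and 35.0% ± 3.55 in hypoxia KO (SD, n = 4, 5, 4 and 5). The dehydrogenase subunits Pdha1 and Pdhb had values between -0.21 and 0.03, none past the threshold, and the phosphatase Pdp1, which reverses the kinases, rose in hypoxia KO (0.57 ± 0.20, adjusted p = 0.0475).

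Mxi1 (ENSMUSG00000025025) encodes a MAX partner that represses MYC targets. It was at 71.7, 56.5, 62.6 and 73.3 CPM in normoxia flox and at 121, 133, 106, 105 and 111 CPM in normoxia KO. In hypoxia it was at 63.1, 67.8, 65.8 and 82.2 CPM in flox and at 136, 149, 134, 140.0 and 134 CPM in KO. The genotypes did not overlap at either oxygen level, and every hypoxia KO library was above every normoxia KO library. Mxi1 rose by 0.80 ± 0.10 (adjusted p = 2.71e-05) in normoxia KO and by 0.99 ± 0.10 (adjusted p = 5.46e-06) in hypoxia KO, 1.75-fold and 1.99-fold. With hypoxia the values were 0.08 ± 0.10 (adjusted p = 0.784) in flox and 0.27 ± 0.09 (adjusted p = 0.187) in KO; 3.83% of all genes had no overlap in the KO oxygen comparison. The block on the normoxia pairs alone gave 0.79 ± 0.17 (adjusted p = 0.0710), and 0.82 ± 0.12 (adjusted p = 0.0016) with the hypoxia libraries kept. Among its relatives, Mxd1 and Mxd4 did not pass in any of the 4 comparisons, and Mxd3, which is linked to dividing cells, rose in normoxia KO (2.10 ± 0.45, adjusted p = 0.00401) and with hypoxia in flox (3.37 ± 0.44, adjusted p = 0.000154), and differed in the interaction (-2.88 ± 0.56, adjusted p = 0.0292). Mxi1 made up 24.0% ± 3.37 of the summed RPKM of Mxi1, Mxd1, Mxd3 and Mxd4 in normoxia flox and 36.5% ± 2.61 in normoxia KO, 23.9% ± 3.29 in hypoxia flox and 40.6% ± 2.82 in hypoxia KO. Myc passed in none of the 4 comparisons (0.72 in normoxia KO, 1.46 with hypoxia in flox).

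P4ha1 (ENSMUSG00000019916), the catalytic subunit of collagen prolyl 4-hydroxylase, was at 36.7 to 62.1 CPM in normoxia flox and 70.3 to 82.0 CPM in normoxia KO. In hypoxia it was at 46.5 to 62.2 CPM in flox and 62.0 to 88.2 CPM in KO. The hypoxia groups overlapped through flox 2 at 62.2 CPM and KO 1 at 62.0 CPM. P4ha1 rose by 0.57 ± 0.14 (adjusted p = 0.00799) in normoxia KO and by 0.51 ± 0.14 (adjusted p = 0.0131) in hypoxia KO, and had 0.02 ± 0.14 (adjusted p = 0.966) and -0.04 ± 0.13 (adjusted p = 0.924) with hypoxia in flox and in KO. The normoxia value missed the threshold with the block on the normoxia pairs alone (0.43 ± 0.11, adjusted p = 0.108) and with the hypoxia libraries kept (0.45 ± 0.14, adjusted p = 0.0600). Its beta subunit partner P4hb rose in both KO comparisons (0.33 ± 0.07, adjusted p = 0.00442, and 0.24 ± 0.07, adjusted p = 0.0218), and the sister subunit P4ha2 rose in hypoxia KO (0.59 ± 0.17, adjusted p = 0.0181).

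Stc2 (ENSMUSG00000020303) encodes a secreted stanniocalcin, and was the member that moved most with oxygen. Its counts were low, 36 to 249 per library. In flox it was at 1.88, 2.02, 1.69 and 2.61 CPM in normoxia and 10.4, 6.80, 4.41 and 5.24 CPM in hypoxia. In KO it was at 3.92, 4.26, 4.25, 4.32 and 4.73 CPM in normoxia and 9.69, 11.1, 7.74, 11.7 and 10.05 CPM in hypoxia. Hypoxia and normoxia did not overlap in either genotype, as was the case for 8.5% of all genes in flox. Stc2 rose with hypoxia by 1.71 ± 0.23 (adjusted p = 0.000233), 3.27-fold, in flox and by 1.22 ± 0.20 (adjusted p = 0.0064), 2.34-fold, in KO. It rose in normoxia KO by 1.06 ± 0.22 (adjusted p = 0.00339), without overlap; the block gave 0.89 ± 0.22 (adjusted p = 0.0997) on the normoxia pairs alone and 0.91 ± 0.31 (adjusted p = 0.0836) with the hypoxia libraries kept. In hypoxia KO its value was 0.58 ± 0.20 (adjusted p = 0.0519), and it passed with DESeq2 (adjusted p = 0.0433), on leaving out hypoxia flox 2 (0.87 ± 0.17, adjusted p = 0.00255) or hypoxia KO 3 (0.66 ± 0.21, adjusted p = 0.0377).

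Its relative Stc1 (ENSMUSG00000014813) did not pass in any of the 4 comparisons. Stc1 was at 37.8, 15.8, 9.64 and 11.3 CPM in normoxia flox and 17.6, 13.7, 6.495, 12.7 and 8.91 CPM in normoxia KO. In hypoxia it was at 33.5, 24.0, 19.7 and 17.0 CPM in flox and 6.79, 13.4, 18.3, 19.4 and 14.6 CPM in KO. The genotypes overlapped at both oxygen levels, as did the oxygen levels in both genotypes. In each of the 4 groups the library highest for Stc1 had Fos at 3088 CPM or more, and the library lowest for Stc1 had Fos at 570 CPM or less. Its change in KO was -0.65 ± 0.40 (adjusted p = 0.309) in normoxia and -0.70 ± 0.40 (adjusted p = 0.227) in hypoxia, and with hypoxia it was 0.34 ± 0.42 (adjusted p = 0.771) in flox and 0.29 ± 0.38 (adjusted p = 0.772) in KO. The normoxia KO value rested on normoxia flox 1, without which it was -0.07 ± 0.35 (adjusted p = 0.917). That library also had the highest sum of 6 fibroblast markers, 956 CPM. Hypoxia flox 3 followed at 474 CPM, and the others had 184 CPM or less. The part of fibroblast RNA in the Stc1 values was not tested. With an immediate early score (mean log2 CPM of 12 genes) as a covariate in the edgeR fit, Stc1 passed: -0.89 ± 0.18 (adjusted p = 0.00198) in normoxia KO, -1.43 ± 0.20 (adjusted p = 0.000135) in hypoxia KO, and 0.66 ± 0.19 (adjusted p = 0.0489) with hypoxia in flox. After adjusting for the sex signal the hypoxia KO value was -0.18 ± 0.43 (adjusted p = 0.82). Stc2 made up 10.04% ± 4.68 of the summed RPKM of both stanniocalcins in normoxia flox, 24.4% ± 7.94 in normoxia KO, 18.5% ± 2.34 in hypoxia flox and 37.5% ± 10.1 in hypoxia KO.

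**Figure D2:**
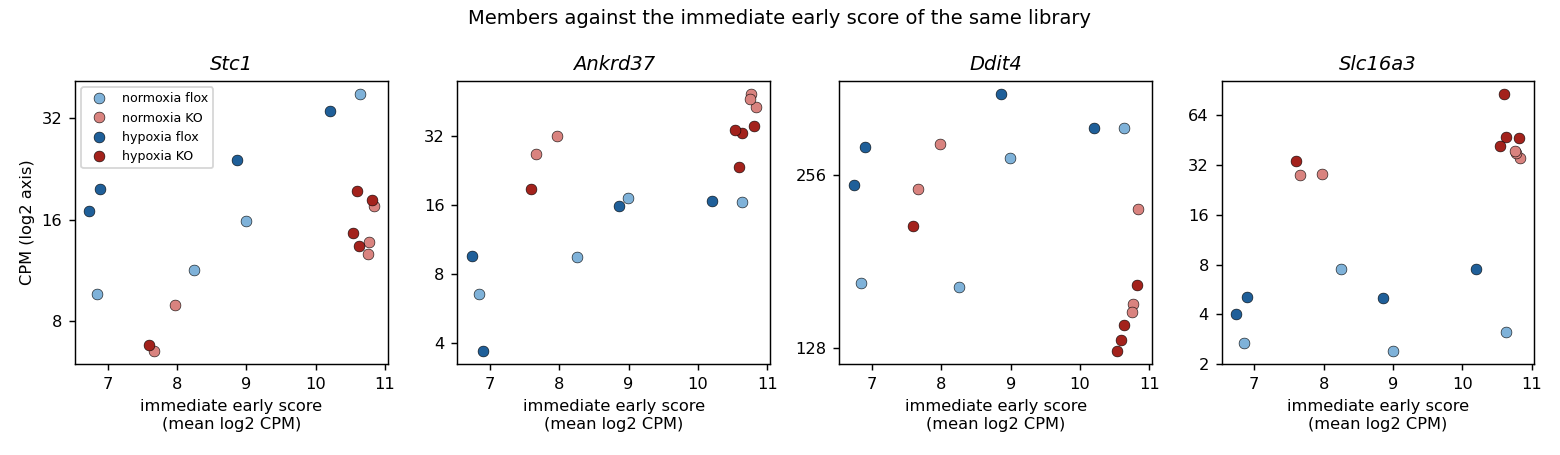
CPM (log2 axis) of Stc1, Ankrd37, Ddit4 and Slc16a3 in each of the 18 libraries against the immediate early score of the same library (mean log2 CPM of 12 immediate early genes), coloured by group. Within a group, Stc1 and Ankrd37 are mostly higher in libraries with a high score, while the Slc16a3 values of KO and flox stay apart over the whole range of the score.

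Ankrd37 (ENSMUSG00000050914) encodes a small ankyrin-repeat protein that is a common marker of HIF activity. It was at 16.6, 17.1, 6.55 and 9.50 CPM in normoxia flox and 43.0, 49.1, 26.8, 46.6 and 32.1 CPM in normoxia KO. In hypoxia it was at 16.7, 15.9, 3.66 and 9.55 CPM in flox and 18.8, 33.0, 35.4, 23.5 and 34.0 CPM in KO. The genotypes did not overlap at either oxygen level. Ankrd37 rose by 1.67 ± 0.38 (adjusted p = 0.00684), 3.18-fold, in normoxia KO and by 1.33 ± 0.38 (adjusted p = 0.0202), 2.52-fold, in hypoxia KO. With hypoxia it had -0.11 ± 0.40 (adjusted p = 0.938) in flox and -0.45 ± 0.34 (adjusted p = 0.589) in KO. Normoxia KO 4 and 6 and hypoxia KO 1, the KO libraries with the lowest Fos, were also the lowest KO libraries of their groups for Ankrd37. Adding the immediate early score as a covariate gave KO values of 1.44 ± 0.23 (adjusted p = 0.000427) and 0.85 ± 0.25 (adjusted p = 0.0253). The hypoxia value missed the threshold without hypoxia flox 5 (1.25 ± 0.44, adjusted p = 0.0690) and after adjusting for the sex signal (1.30 ± 0.47, adjusted p = 0.0696), and the normoxia value with the block on the normoxia pairs and the hypoxia libraries kept (1.44 ± 0.44, adjusted p = 0.0639). Its exons share 22.7% of their bases with Lrp2bp and 3.70% with Ufsp2 on the opposite strand, and the strand setting of the counting is not known; these genes had 557 and 6582 counts in all, Ankrd37 9805.

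Bnip3 (ENSMUSG00000078566), a mitochondrial outer membrane protein that recruits autophagosomes, was at 19.1 to 27.0 CPM in normoxia flox, 24.6 to 30.1 in normoxia KO, 21.2 to 32.3 in hypoxia flox and 24.6 to 46.4 in hypoxia KO, and every pair of groups compared overlapped. Its changes were 0.34 ± 0.16 (adjusted p = 0.177) and 0.41 ± 0.16 (adjusted p = 0.0788) in KO, and 0.24 ± 0.17 (adjusted p = 0.528) and 0.31 ± 0.15 (adjusted p = 0.365) with hypoxia in flox and KO. The hypoxia KO value passed in 5 of 22 alternatives, among them after adjusting for the immediate early score (0.55 ± 0.17, adjusted p = 0.0295) or the sex signal (0.56 ± 0.19, adjusted p = 0.0478), and on leaving out hypoxia flox 5 (0.53 ± 0.16, adjusted p = 0.0397) or hypoxia KO 5 (0.51 ± 0.15, adjusted p = 0.0279). Its exons share 22.2% of their bases with Gm45507 on the opposite strand, which had 0 counts. The paralog Bnip3l was more abundant, at 66.2 to 70.4 RPKM in the group means against 9.95 to 14.5 RPKM for Bnip3, and its change was 0.06 in normoxia KO and 0.10 in hypoxia KO, neither past the threshold.

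Ddit4 (ENSMUSG00000020108) encodes REDD1, which curbs the growth kinase mTORC1, and with a mean of 126 RPKM over all libraries it was the most abundant of the 10 per length. It was at 309.8, 274, 166 and 164 CPM in normoxia flox and 223, 152, 242, 148 and 290.4 CPM in normoxia KO. In hypoxia it was at 309, 355, 287 and 246 CPM in flox and 208, 140.3, 164, 132 and 126 CPM in KO. In KO, the libraries with low Fos (normoxia 4 and 6, hypoxia 1) were the highest of their groups, whereas in normoxia flox the library with the highest Fos, flox 1, was the highest for Ddit4. The normoxia groups overlapped, and in hypoxia every KO library was below every flox library, 22.3% of all genes being free of overlap there. Ddit4 fell by 0.96 on the log2 scale in hypoxia KO, 1.94-fold (SE 0.23, adjusted p = 0.00771), and stayed past the threshold in all 22 alternatives, from -1.12 to -0.87; after adjusting for the immediate early score it was -0.92 ± 0.26 (adjusted p = 0.0191) and with the sex signal -1.06 ± 0.30 (adjusted p = 0.0232). In normoxia KO its value was -0.11 ± 0.23 (adjusted p = 0.79). With hypoxia it had 0.39 ± 0.24 (adjusted p = 0.448) in flox and -0.45 ± 0.22 (adjusted p = 0.362) in KO, on opposite sides of 0.

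Ndrg1 (ENSMUSG00000005125), a gene of differentiation and stress that is also abundant in oligodendrocytes, was second per length at 66.8 RPKM. It was at 590.0, 519, 632 and 407 CPM in normoxia flox and 449, 457, 471, 438 and 435 CPM in normoxia KO. In hypoxia it was at 435, 431, 496 and 408 CPM in flox and 329, 332, 353, 413 and 317 CPM in KO. Normoxia flox 4, with neuron RNA, was the lowest library of its group, and every hypoxia KO library was below every normoxia KO library. Ndrg1 fell in hypoxia KO (-0.34 ± 0.11, adjusted p = 0.0332), with overlap, and this call was lost in 11 of 22 alternatives, among them without hypoxia flox 2, 3 or 4 and without hypoxia KO 1, 2, 3 or 5 (adjusted p = 0.0510 to 0.123) and after adjusting for the sex signal (-0.23 ± 0.13, adjusted p = 0.248). The other values were -0.25 ± 0.11 (adjusted p = 0.13) in normoxia KO, -0.28 ± 0.12 (adjusted p = 0.229) with hypoxia in flox and -0.37 ± 0.10 (adjusted p = 0.0991) with hypoxia in KO, where DESeq2 called it (-0.34, adjusted p = 0.0395). Without the pair of libraries with neuron RNA these 3 passed, at -0.42 ± 0.09 (adjusted p = 0.00382), -0.40 ± 0.09 (adjusted p = 0.022) and -0.33 ± 0.08 (adjusted p = 0.0475). Without normoxia flox 4 alone, the values in normoxia KO and with hypoxia in flox passed, at -0.39 ± 0.09 (adjusted p = 0.00505) and -0.40 ± 0.09 (adjusted p = 0.0257). Summed levels of 10 oligodendrocyte markers ran from 932 to 5374 CPM in normoxia flox, 649 to 5360 in normoxia KO, 662 to 2549 in hypoxia flox and 716 to 4933 in hypoxia KO; their part in these values was not tested.

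**Figure D3:**
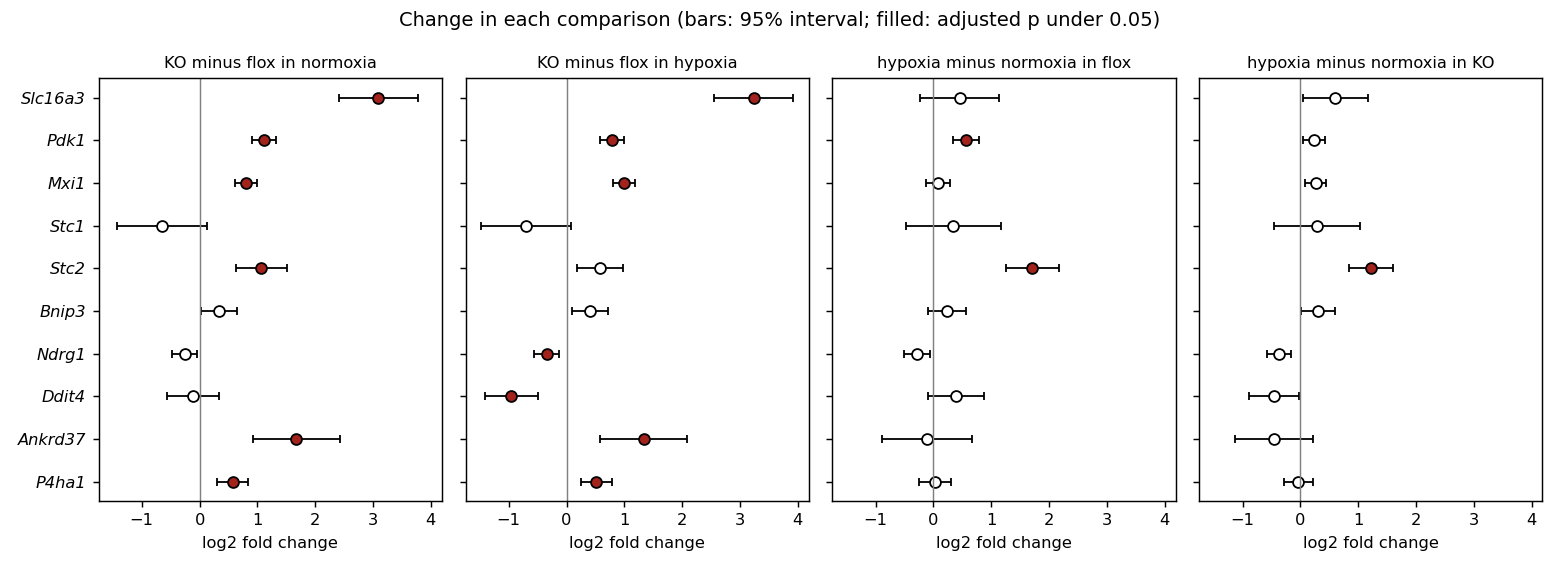
Log2 fold change of each HIF target in the 4 comparisons. Points are the fitted changes, bars are approximate 95% intervals (1.96 SE to either side), and filled points have an adjusted p under 0.05. The bars are narrower than the tests. For Slc16a3 with hypoxia in KO the bar runs from 0.04 to 1.16, where edgeR's unadjusted p was 0.0519. Slc16a3 stands at 3.09 and 3.24 in the genotype comparisons and at 0.45 and 0.60 in the oxygen comparisons without passing there (0.98 in flox without normoxia flox 4), while Ddit4 is the lowest in hypoxia KO at -0.96.

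Whether the genotype difference changed with oxygen was tested as an interaction, the change in hypoxia KO minus that in normoxia KO. edgeR called 0 of the 10 members, DESeq2 called 0, and 2 had an unadjusted p under 0.05; over all genes edgeR called 0.439%, all lower, and 5.48% had an unadjusted p under 0.05. The pair were Ddit4 at -0.84 ± 0.33 (unadjusted p = 0.0206, adjusted p = 0.72) and Pdk1 at -0.33 ± 0.15 (unadjusted p = 0.0428, adjusted p = 0.883). For Stc2 the value was -0.49 ± 0.30 (adjusted p = 0.994). The interval of 1.96 SE reached from -0.74 to 1.03 for Slc16a3 and from -0.08 to 0.45 for Mxi1. The members' median change was 0.69 in normoxia KO and 0.55 in hypoxia KO, with medians over all genes of -0.02 and -0.0021, and 0.29 and 0.25 with hypoxia in flox and in KO, with -0.03 for all genes in both.

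Across the 18 libraries the members split into those that moved together and those that did not. These correlations rest on the same groups and are descriptions. Slc16a3, Mxi1 and Pdk1 had Pearson r of 0.91 to 0.94 among themselves (log2 CPM, n = 18), and P4ha1 had 0.89 with Slc16a3. Ndrg1 ran against Stc2 (r = -0.82) and Pdk1 (r = -0.73), and Stc1 had r between -0.39 and 0.34 with the other members. Among all genes with a symbol and an average log2 CPM of at least 1, the nearest to Mxi1 were Snapc1 (r = 0.96), Hif1a (r = 0.96) and Gpr1 (r = 0.96). The nearest to Slc16a3 were Carhsp1, Sh3bgrl2 and Cd55 (r = 0.98 to 0.99), and those to Pdk1 were Dpp4, Src and Fndc1 (r = 0.97 to 0.98). Stc2 was nearest to Col4a2 and Col4a1 (r = 0.96 and 0.95), the basement membrane collagens, and then Gm2399. P4ha1 was nearest to Metrnl, Apbb1ip and the phosphofructokinase gene Pfkp (r = 0.94 to 0.95), Ankrd37 to Hic1, Cebpa and Bik (r = 0.90 to 0.92), and Bnip3 to Gm6532, B4galt5 and Tspan4 (r = 0.90 to 0.93). The nearest to Ndrg1 (Adipor2, Ints9, Cyth3), Stc1 (Pogz, Cep164, Zfp609) and Ddit4 (Ddx39b, 4921531C22Rik, AC122252.2) had r between 0.81 and 0.93.

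**Figure D4:**
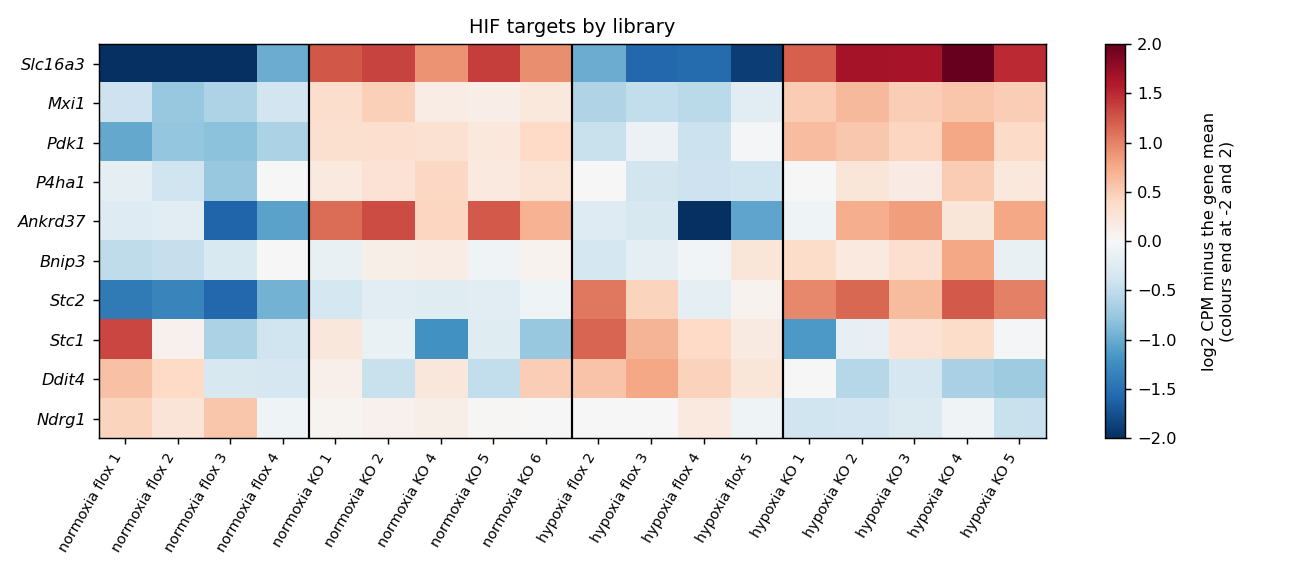
Log2 CPM of the 10 HIF targets in each library minus the gene's mean over the 18 libraries (colours end at -2 and 2); vertical lines separate the groups. Slc16a3, Mxi1, Pdk1, P4ha1 and Ankrd37 form blocks that change colour with genotype, Stc2 changes with both genotype and oxygen, and Ddit4 and Ndrg1 are lowest in hypoxia KO.

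Some of the factors and sensors that govern these targets differed between genotypes as well. Of 10 HIF subunits and oxygen sensors, 3 rose and 1 fell in each KO comparison, where 16.6% (normoxia) and 22.3% (hypoxia) of all genes changed. Hif1a, the HIF-1 alpha subunit gene, rose (1.09 ± 0.12, adjusted p = 1.20e-05, in normoxia and 1.04 ± 0.12, adjusted p = 2.52e-05, in hypoxia), and Epas1, the HIF-2 alpha subunit gene, fell (-0.81 ± 0.13, adjusted p = 0.000307, and -0.55 ± 0.13, adjusted p = 0.00631). Per length Epas1 remained the more abundant, at 852 ± 179 RPKM in normoxia flox and 458 ± 50.4 RPKM in normoxia KO, with Hif1a at 20.6 ± 0.78 and 41.5 ± 7.22 RPKM (SD, n = 4 and 5). Egln3, a hydroxylase that is itself a HIF target, rose by 4.17 ± 0.49 (adjusted p = 2.22e-05) and 4.37 ± 0.49 (adjusted p = 2.17e-05), from 0.625 and 0.675 RPKM in the flox groups to 11.3 and 12.4 RPKM in KO, and Egln1 rose by 0.27 ± 0.07 (adjusted p = 0.0105) and 0.29 ± 0.07 (adjusted p = 0.0054). With hypoxia, edgeR and DESeq2 called 0 of the 10 in flox and in KO, with 2 at an unadjusted p under 0.05 in each. Without the libraries with neuron RNA edgeR called 1 higher and 1 lower in flox and 0 in KO. Over all genes it then called 485 higher and 205 lower in flox and 345 in KO.

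Of 40 other HIF targets, 15 rose and 2 fell in normoxia KO, and 14 rose and 1 fell in hypoxia KO. Over all genes 9.54% rose and 7.03% fell in normoxia KO, and 11.4% rose and 11% fell in hypoxia KO. The 2 that fell in normoxia KO were Lox and Angptl4, whose values are given below. The lists share genes. Egln1 and Egln3 are in this list and among the sensors above, so their calls count in both. Angptl4 is also among the glucocorticoid response genes, and Ndufa4l2 is also among the pericyte markers. Vldlr is also in the ATF4 list and Bnip3l in the mitophagy list. Of the glycolysis genes, Aldoc is also an astrocyte marker and Slc2a1 an endothelial marker. The smallest adjusted p in normoxia KO belonged to Loxl2, a collagen cross-linking enzyme (2.43 ± 0.24, adjusted p = 2.89e-06), its relative Lox, which fell (-1.43 ± 0.22, adjusted p = 0.000237), Egln3, and Ak4, an adenylate kinase (0.81 ± 0.13, adjusted p = 0.000408). In hypoxia KO they belonged to Egln3, Loxl2 (1.75 ± 0.22, adjusted p = 5.64e-05), Ak4 (0.84 ± 0.13, adjusted p = 0.000325) and Ero1l, an oxidase of protein folding (0.69 ± 0.13, adjusted p = 0.0013). With hypoxia, Loxl2 (1.87 ± 0.24, adjusted p = 0.000138, and 1.19 ± 0.20, adjusted p = 0.0087) and Plod1, a collagen lysyl hydroxylase (0.41 ± 0.08, adjusted p = 0.00628, and 0.37 ± 0.07, adjusted p = 0.0157), rose in flox and in KO, and Tmem45a fell in KO (-1.09 ± 0.20, adjusted p = 0.0148). Tmem45a was also the list's single call in the interaction (-1.60 ± 0.31, adjusted p = 0.0277). In place of 17, the normoxia count was 10 without a filter on low counts, 11 when the normoxia groups were fitted alone, 4 with the block on the normoxia pairs alone and 10 with the hypoxia libraries kept. Over all genes the 2905 calls became 2170, 1955, 701 and 1751 in these settings. With hypoxia in flox the count of 2 was 4 by DESeq2, 7 with the immediate early score in the fit, and 10 when the libraries with neuron RNA were also left out, where the KO count of 3 was 5. Over all genes the 492 calls in flox became 833, 960 and 1366, and the 260 in KO became 1057. The last of these settings was chosen after seeing the data. Medians over the list were 0.42 and 0.56 in the KO comparisons and 0.08 and 0.17 with hypoxia in flox and KO.

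Of 19 glucose uptake and glycolysis genes, 7 rose in normoxia KO and 10 in hypoxia KO, with no gene called lower; 12 and 9 did not pass. Over all genes 9.54% and 11.4% rose. Ldha, which makes lactate from pyruvate, rose in normoxia KO (0.77 ± 0.09, adjusted p = 1.61e-05), in hypoxia KO (0.47 ± 0.09, adjusted p = 0.00143) and with hypoxia in flox (0.47 ± 0.09, adjusted p = 0.00692), where it was the list's single call with all libraries. Pfkl (0.88 ± 0.11, adjusted p = 4.20e-05), Hk1 (0.62 ± 0.10, adjusted p = 0.000255) and Pkm (0.80 ± 0.14, adjusted p = 0.000533), which catalyse irreversible steps of glycolysis, rose in normoxia KO. In hypoxia KO the smallest adjusted p were those of Hk1 (0.77 ± 0.10, adjusted p = 4.78e-05), Pfkl (0.66 ± 0.11, adjusted p = 0.000621), Pfkp (0.87 ± 0.16, adjusted p = 0.00113) and Ldha. The main glucose carrier of brain endothelium, Slc2a1, had 0.23 and 0.25 in the KO comparisons and -0.01 and 0.01 with hypoxia, none past the threshold. With hypoxia in KO edgeR and DESeq2 called 0 of the 19, with 1 at an unadjusted p under 0.05. The normoxia KO count was 4 with the block on the normoxia pairs alone and 12 without the libraries with neuron RNA, with 701 and 3776 calls over all genes. Without those libraries 4 genes rose with hypoxia in flox and 1 in KO, and with the immediate early score added as a covariate 5 and 4 did. Over all genes 485 and 189 rose without those libraries, and 814 and 611 with the score added. This last setting was chosen after seeing the data.

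**Figure D5:**
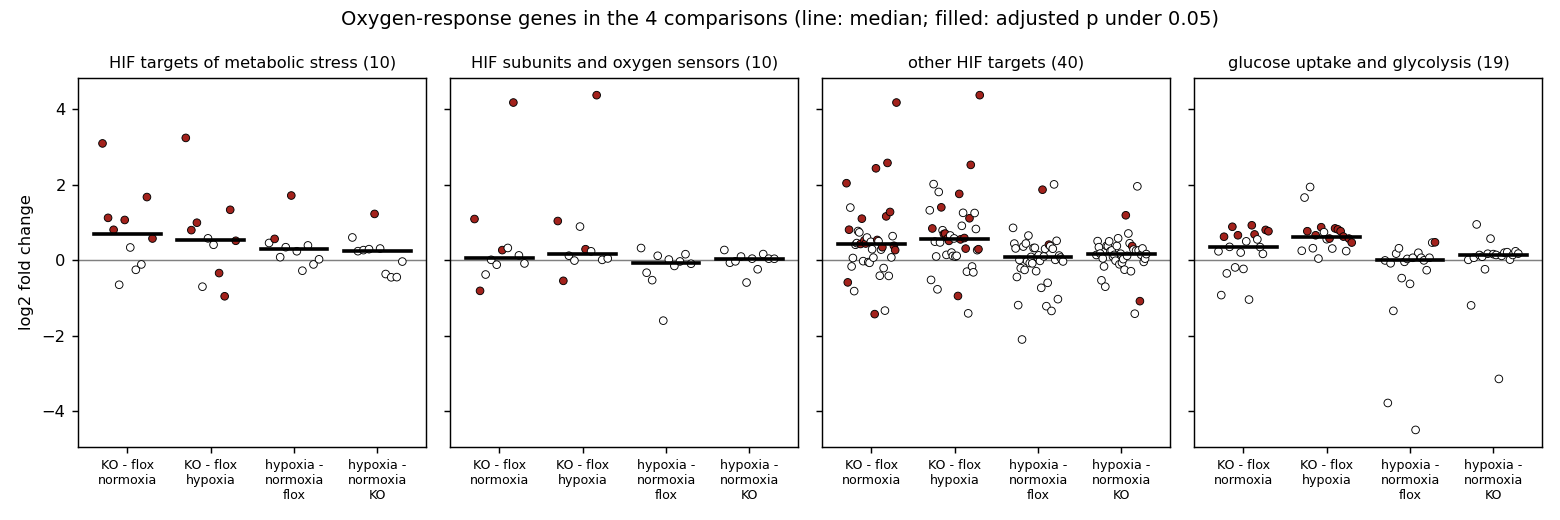
Log2 fold changes of the 10 HIF targets of metabolic stress, 10 HIF subunits and oxygen sensors, 40 other HIF targets and 19 glucose uptake and glycolysis genes in the 4 comparisons; each point is a gene, filled where the adjusted p is under 0.05, and the line is the median. Filled points are frequent in the KO comparisons and rare in the oxygen comparisons, where Stc2 is the highest of the 10 HIF targets. The lowest glycolysis points there are Aldoc and Slc2a3, neither called, and Aldoc is also among the astrocyte markers. Egln1 and Egln3 are drawn both among the sensors and among the other HIF targets.

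Ddit4, Stc2, Ndrg1 and Bnip3 also answer to other stress pathways, and lists of these were counted. Their counts in normoxia KO stand against 9.54% of all genes risen and 7.03% fallen, and those in hypoxia KO against 11.4% and 11%. The count for ATF4 was near the share over all genes in normoxia KO and below it in hypoxia KO. The median change of the ATF4 list was 0.31 and 0.52 there, with -0.02 and -0.0021 over all genes. In the same order, medians were 0.02 and 0.30 for the glucocorticoid list and 0.09 and 0.065 for the mitophagy list. Of 20 genes of ATF4 and the integrated stress response, 2 rose in normoxia KO, the pseudokinase Trib3 (0.78 ± 0.19, adjusted p = 0.00866) and the folate enzyme Mthfd2 (1.12 ± 0.32, adjusted p = 0.0218), 1 rose in hypoxia KO, Nupr1 (1.29 ± 0.30, adjusted p = 0.00556), and 1 with hypoxia in flox, Mthfd2 (1.58 ± 0.33, adjusted p = 0.0108). Of 16 glucocorticoid response genes tested of 17, 3 fell in normoxia KO: Zbtb16 (-2.87 ± 0.73, adjusted p = 0.013), the metallothionein Mt1 (-0.90 ± 0.23, adjusted p = 0.0122) and Angptl4 (-0.59 ± 0.20, adjusted p = 0.0489). Angptl4 is also counted among the other HIF targets. In hypoxia KO, where Ddit4 fell, edgeR called 0 of the 16 and DESeq2 called 4, with 6 at an unadjusted p under 0.05. Of 16 mitophagy and autophagy genes, 3 rose in normoxia KO, the kinase Ulk1 (0.57 ± 0.09, adjusted p = 0.000408), the receptor Optn (0.49 ± 0.09, adjusted p = 0.000851) and Atg7 (0.41 ± 0.08, adjusted p = 0.00263). The same 3 and Tfeb (0.27 ± 0.08, adjusted p = 0.0189) rose in hypoxia KO, and Ulk1 rose with hypoxia in flox (0.48 ± 0.10, adjusted p = 0.01). Of 12 immediate early genes edgeR and DESeq2 called 0 in each comparison, with 0 at an unadjusted p under 0.05, while their median was 0.89 in normoxia KO and 1.33 in hypoxia KO.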

How the data were processed

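RNA from isolated brain endothelial cells was sequenced after a stranded mRNA preparation, per the labels' protocols. The authors deposited a table of read counts per Ensembl gene, the unit tested here, and a table of RPKM values, used for levels between genes and for 1 alternative. HISAT2, edgeR and the build GRCm39 are named in the submitters' processing notes; the counting tool and its strand setting are not given in the sources used here. Library totals ranged from 17931197 to 31193333 counts.

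Symbols came from GENCODE M21 (GRCm38), which named 91.3% of the identifiers; the rest held 0.723% of counts and stayed in the tests. Genes passing edgeR's filterByExpr (17531) were scaled by TMM and fitted together over the 4 groups with glmQLFit (robust) and glmQLFTest, with Benjamini-Hochberg adjustment over all of them (R 4.3.3, edgeR 4.0.16; limma 3.58.1 and DESeq2 1.42.0 in alternatives). Log2 CPM used a prior count of 2. The steps were tested on simulated data.

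The 10 genes and all lists were chosen with earlier results of these data known. Every one of the 10 is described in each comparison; of the other lists, the genes with the smallest adjusted p among those called are named, and further list genes such as kinases, carriers and unmoved relatives were named after their values were seen. Replicate numbers are shared between groups. In normoxia the deviations of libraries numbered 1, 2 and 4 had correlations of 0.58, 0.29 and 0.85 over genes, and these were taken as pairs. For number 2, neither library correlated best with the other. Flox 2 had Xist at 891 CPM and Ddx3y at 0, while KO 2 had 0.269 and 172 CPM. The pair numbered 1 shares high Fos (4749 and 5552 CPM), and the pair numbered 4 shares neuron RNA. Whether the numbers mark litters or batches is not stated, so values with the block depend on an uncertain pairing. In the other comparisons the correlations ran from -0.525 to 0.402, some of them under 0.1. The block was fitted there as well, among the alternatives. The alternatives were RLE scaling, no or a stricter filter, DESeq2, the earlier quasi-likelihood fit, limma on log2(RPKM + 0.1), replicate blocks, the 2 compared groups alone, covariates for the immediate early score and the sex signal, and leaving out each library or those with neuron RNA.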

Additional observations from a re-analysis of the deposited data

Results flagged for a closer look

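In 3 of 40 groups of values (10 genes in 4 groups) a single library stood far from the rest of its group, as Dixon's 95% limits measure it; chance flags about 1 in 20 groups. Slc16a3 was at 7.50 CPM in normoxia flox 4, against 2.39 to 3.13 CPM in the other 3 normoxia flox libraries. This library also carried neuron RNA (Syt1 at 838 CPM) and had the highest sum of astrocyte markers (2189 CPM). Without it the change of Slc16a3 in normoxia KO was 3.60 ± 0.31 (edgeR, adjusted p = 9.60e-07). Slc16a3 was at 86.1 CPM in hypoxia KO 4, against 33.9 to 47.1 CPM in the other 4, and that library had the highest sum of neutrophil markers (133 CPM). P4ha1 was at 62.2 CPM in hypoxia flox 2, against 46.5 to 47.8 CPM in the other 3, and without it the change of P4ha1 in hypoxia KO was 0.62 ± 0.14 (edgeR, adjusted p = 0.00539). The part of neuron, astrocyte or neutrophil RNA in these values was not tested.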

How the results depend on the processing

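Of the 16 member values past the threshold, 6 stayed past it in every alternative, and none changed sign; of the 34 others, 9 passed in at least 1 alternative and 10 had the other sign in at least 1. Leaving out 1 library gave 6 to 7 members called in normoxia KO, 6 to 7 in hypoxia KO, 2 to 3 and 1 to 1 with hypoxia in flox and KO, and 0 to 0 in the interaction. The counts over all genes were then 2085 to 3645, 2664 to 4499, 332 to 481, 53 (without hypoxia KO 2) to 523 (without hypoxia KO 1), and 28 (without normoxia flox 1) to 98.

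DESeq2 called 833, 617 and 145 genes with hypoxia in flox, in KO and in the interaction, where edgeR called 492, 260 and 77. With hypoxia in KO DESeq2 called 2 members, 1 higher and 1 lower. Fitting only the 2 groups compared gave 1 member and 329 genes with hypoxia in flox, and 107 genes in KO. The immediate early score as a covariate gave 960 and 539 genes with hypoxia in flox and KO. Leaving out the libraries with neuron RNA gave 2 members with hypoxia in KO, 1 higher and 1 lower (Ndrg1), among 345 genes. Both together, chosen after seeing the data, gave 4826 genes in normoxia KO, 1366 and 1057 with hypoxia, 154 in the interaction, and 4 and 2 members with hypoxia in flox and KO. The cause of these shifts was not tested.

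With a replicate block in the edgeR fit of all 18 libraries, 1791 genes were called in normoxia KO, 43 with hypoxia in KO and 3 in the interaction. With hypoxia in flox it called 355 genes and 1 member, and Pdk1 had an adjusted p of 0.0600. The block on same-numbered pairs alone, with fewer libraries, gave 701 genes and 2 members in normoxia KO, and 0 genes and 0 members with hypoxia in flox and in KO by edgeR. On the normoxia pairs with the hypoxia libraries kept, an alternative chosen after seeing the data, 1751 genes and 3 members (Slc16a3, Pdk1, Mxi1) were called in normoxia KO. The block was also fitted to same-numbered libraries outside normoxia, where their correlations ran from -0.525 to 0.402 and did not establish a pairing. Those fits are counted among the alternatives.

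Stc2, with 36 to 249 counts per library, had the lowest counts of the 10 genes.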

Other observations

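Proliferation genes, a list counted because Mxi1 and Mxd3 belong to the MYC network, moved with genotype in normoxia and with oxygen in flox. Of 20, 16 rose in normoxia KO and 18 rose with hypoxia in flox (edgeR, adjusted p under 0.05), 2 rose with hypoxia in KO, and 12 had a lower interaction. Over all genes these shares were 9.54%, 2.34%, 0.713% and 0.439%. In hypoxia KO against flox, edgeR and DESeq2 called 0, with 2 at an unadjusted p under 0.05, while edgeR called 22.3% of all genes. In normoxia KO the smallest adjusted p was that of Cdc20, an activator of the anaphase-promoting complex (1.55 ± 0.17, adjusted p = 8.82e-06). With hypoxia in flox, Bub1 (4.44 ± 0.38), Cdk1 (3.89 ± 0.33) and Ccnb2 (3.46 ± 0.30), genes of mitosis, had the smallest, each with adjusted p = 4.93e-06. The summed level of the list was 103 to 150.4 CPM in normoxia flox, 183 to 303 in normoxia KO, 363 to 580.5 in hypoxia flox and 242 to 506 in hypoxia KO. The comparisons share libraries. Among the members, Mxi1 had 0.08 ± 0.10 (edgeR, adjusted p = 0.784) with hypoxia in flox.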
